A study of Homo sapiens with 6 samples.

Results

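The genes described here are 33 genes of the extracellular matrix, the mesenchymal state and the response to transforming growth factor beta (TGF-beta), with collagens and integrins left out. They were taken by gene symbol from a deposited table of 60612 genes, and each of the 33 symbols matched 1 row. Of the 33, 30 had enough reads to be tested. The study used A549, an established human lung adenocarcinoma line of epithelial origin. Its 6 RNA sequencing libraries came from cells collected 48 hours after transfection, 3 with a small interfering RNA (siRNA) against GSE1 (siGSE1) and 3 with a negative control siRNA (control). All 6 carry the same line and the same transfection step, so the controls are transfected cells and not untouched ones. The knockdown is transient and acts in 1 line, and the sequence of neither siRNA was used here. Replicates carry the numbers 1 to 3 with no word on separate cultures, so p-values cover only how far these libraries differ, and that may be technical variation.

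TGF-beta is secreted in a latent form bound to latent TGF-beta binding proteins (LTBPs) in the matrix. Once released it binds receptor kinases that activate SMAD transcription factors, which switch on matrix genes together with inhibitors that limit the response. In epithelial tumor cells the same signal is known for driving matricellular proteins, proteases and parts of a mesenchymal program. Matricellular proteins are secreted matrix proteins that act on cells rather than bear load.

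The targeted gene checks the labels. GSE1, whose protein has been found with CoREST corepressors, had 7.37, 8.06 and 7.92 FPKM (fragments per kilobase of exon, scaled to the library's total) in control replicates 1, 2 and 3 and 3.84, 4.06 and 3.73 in the siGSE1 libraries. On the log2 scale siGSE1 minus control was -1.03 (SE 0.06, adjusted p = 2.14e-08 by edgeR). Library totals ran from 14475992 to 20755506 counts, and each library had 23128 to 24059 genes with a count. Control replicate 2 stood apart from the other control libraries for some of the genes described here. Counts are therefore given with and without that library, as are the values of genes whose call changed and of others where it stood apart. That library was left out because it stood apart, so a smaller SE or adjusted p without it is not stronger evidence. A549 expressed keratin genes such as KRT8 and KRT18 at 632 FPKM or more in every library, while the epithelial adhesion gene EPCAM had 0.45 to 1.14 FPKM and the transcription factor gene GRHL2 had 0 counts.

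The matrix and TGF-beta response genes described here, chosen with earlier results of these data known, were mostly higher in siGSE1 cells. The shares over all genes are therefore a background and not a test of the list. Of the 30 tested, 19 rose, 2 fell and 9 did not pass an adjusted p of 0.05 in edgeR's quasi-likelihood test. Over all 15937 genes tested, 10.9% rose and 9.02% fell, 19.9% in all. The largest increases were those of the SMAD feedback gene PMEPA1 (2.73-fold), the metalloprotease gene ADAM19 (2.71-fold), the matricellular gene TNC (2.05-fold) and LTBP2 (2.03-fold). Without control replicate 2, the lowest control for each, these were 2.18-fold, 2.27-fold, 1.88-fold and 1.81-fold. TNC was under 1 FPKM in every control library. The genes that fell were SPARC, a secreted collagen-binding protein, and TGIF1, a SMAD corepressor. On TMM-scaled log2 counts, all 3 siGSE1 values lay above all 3 control values for 21 members, where 18.8% of all genes tested did so, and below them for 2 members, where 17.4% did. The median log2 fold change of the 30 was 0.51, beside 0.00 over all genes tested. Under the stricter limits of the series text (0.001 for the adjusted p, 0.5 for the size of the log2 change), 12 members rose and 0 fell, where 1.62% and 0.929% of all genes did. Together the 33 genes held 0.709% to 0.764% of the counts in control libraries and 0.856% to 0.908% in siGSE1 libraries. In these bulk libraries, a change in the number of cells that express a gene and a change in RNA per cell cannot be told apart.

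**Figure D1:**
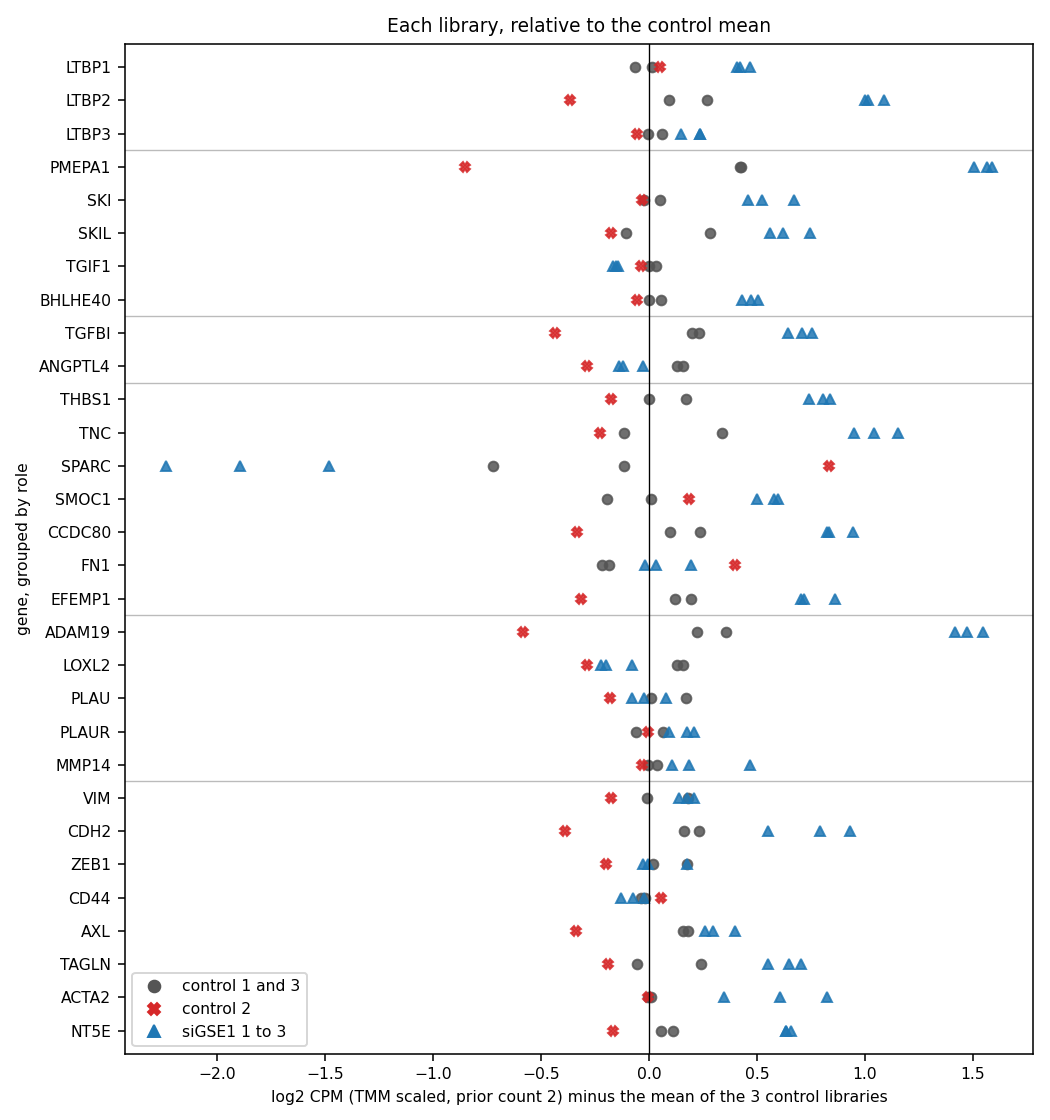
The x axis gives log2 CPM (scaled counts) in each library minus the mean of the 3 control libraries, and each row is 1 of the 30 tested genes, grouped by role. Red crosses are control replicate 2, grey circles control replicates 1 and 3, and blue triangles the siGSE1 libraries. The triangles lie to the right of all control points in 21 rows, and the red cross is the leftmost control point in 23.

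Without control replicate 2, 20 members rose and 3 fell, where 11.8% and 10.1% of all 16257 genes then tested did, 21.9% in all. All 19 members that rose in the full comparison also rose without that library, where 9.7% of all genes rose in both, and FN1 was added. LOXL2 was added to the genes that fell. Without siGSE1 replicates 1, 2 and 3 in turn, 17, 16 and 17 members rose. In those fits 1194, 1158 and 1049 genes rose of 16375, 16339 and 16306 tested.

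The promoters of these genes were examined because SMAD proteins bind DNA at short CAGA-type sequences. RefSeq starts (GRCh38.p14) gave 49 windows of 250 bases upstream of a start for 27 of the 33 genes. No window was given for SKI, EFEMP1, LOXL2, MMP1, SNAI2 or TAGLN. TGIF1 and ZEB1 supply 7 windows each, so the windows are not independent. CAGACA, searched on both strands, occurred in 11 of the 49 windows (22.4%), from 8 genes, and in 13.6% of all 35116 windows. The stretches below show each CAGACA match in a gene that rose, 5′ to 3′ on the gene's strand with the match in capitals. TGTCTG is the same motif read on the other strand.
PMEPA1: ccccttgggcagCAGACAatgggtgtggat
TNC: agtgggaaaggaTGTCTGgaggcgaggcgt
CCDC80: tacatatatacTGTCTGtgtcagcacagc
CDH2: ttgttttgcaaaCAGACAaaaggaccagta
AXL: aaggaaactttgTGTCTGcggatggagagc
LTBP1, upstream of an earlier start: gacagatgttttCAGACAtgccgcatgcct
LTBP1, upstream of a later start: ggtattgctcttTGTCTGcccgtgaataaa
The PMEPA1 stretch is at chr20:57710675-57710704 (minus strand), its match beginning 115 bases before a start, and the TNC stretch at chr9:115118211-115118240 (minus strand), its match beginning 71 bases before the start. The others are at chr3:112641365-112641393 (CCDC80, minus strand), chr18:28036804-28036833 (CDH2, minus strand), chr19:41226570-41226599 (AXL, plus strand), chr2:33134268-33134297 and chr2:33134463-33134492 (both LTBP1, plus strand). GENCODE release 29 places all 7 inside the span of their gene. The TNC stretch and the second LTBP1 stretch touch an annotated exon, and the other 5 do not. For PMEPA1, CDH2, AXL and LTBP1 the window of the gene's first start had 0 CAGACA, and the matches shown lie before later starts. The bases just after the start lay in a GENCODE 29 transcript of the gene for 37 of the 49 windows. They did not for the CDH2 window or either LTBP1 window shown. The motif also occurred in 3 windows of TGIF1, which fell, and in 1 of ZEB1, which did not pass. The longer AGCCAGACA, which contains CAGACA, and the palindrome GTCTAGAC occurred in 0 of the 49 windows and in 0.231% and 0.182% of all windows. TGANTCA, the form bound by AP-1, occurred in 8.16% of the 49 windows and 6.57% of all windows. CACCTG, the form bound by SNAIL and ZEB repressors, occurred in 16.3% and 17.5%. These are matches of letters in these windows and not measured binding.

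The 3 LTBP genes among the members rose, as did 10.9% of all genes tested. LTBP4, a relative on the core pathway list named after its values were seen, did not pass (log2 fold change 0.20, SE 0.09, adjusted p = 0.118, and 0.08 without control replicate 2). LTBP2 (ENSG00000119681, chromosome 14, 74498183 to 74612378, minus strand, hg38), the family member known for binding elastic fibers rather than latent TGF-beta, had 3.63, 2.67 and 4.19 FPKM in control replicates 1, 2 and 3 and 7.05, 7.03 and 7.44 in the siGSE1 libraries. Its log2 fold change was 1.02 (SE 0.11, adjusted p = 9.82e-06), and 0.86 (SE 0.07) without control replicate 2. LTBP1, which carries latent TGF-beta into the matrix, had 7.80, 8.10 and 7.54 FPKM against 10.6, 10.6 and 10.9 (log2 fold change 0.43, SE 0.06, adjusted p = 9.22e-05). Control replicate 2 was the highest control for LTBP1 and the lowest for LTBP2, and neither gene's groups overlapped. LTBP3, which also binds latent TGF-beta, changed least of the 3, from 9.18, 8.58 and 8.98 FPKM to 10.7, 10.7 and 10.0. Its log2 fold change was 0.21 (SE 0.06, adjusted p = 0.0155), and the call was lost without siGSE1 replicate 1 (adjusted p = 0.0792) or siGSE1 replicate 2 (adjusted p = 0.0818), within a range of 0.00242 to 0.0818 over 14 alternatives.

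Among feedback and transcription genes, 4 of 5 rose and 1 fell, where 10.9% and 9.02% of all genes tested did. PMEPA1 (ENSG00000124225, chromosome 20, 57648392 to 57711536, minus strand), whose membrane protein binds SMAD2 and SMAD3 away from the receptor, had 27.1, 11.3 and 27.7 FPKM in control replicates 1, 2 and 3. Its siGSE1 values were 58.8, 61.6 and 62.2. Control replicate 2 stood at 41.3% of the mean of the other controls, and every siGSE1 library was above all controls. The log2 fold change was 1.45 (SE 0.21, adjusted p = 1.33e-04) with all libraries and 1.13 (SE 0.05, adjusted p = 4.76e-20) without control replicate 2. In the fit without that library the SE was also 0.05 for TGFBI, FN1, CD44 and VIM. The smaller adjusted p of that fit should not be read as stronger evidence. With edgeR's robust prior the full comparison gave an adjusted p of 0.0742, the highest of 14 alternatives. The lowest, 1.69e-130 in edgeR with no filter on low counts, came with almost the same log2 fold change, 1.46. It depends on that setting and should not be read as stronger evidence.

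SKI and SKIL encode related corepressors that bind SMAD complexes and hold target genes off. SKI had 5.18, 5.20 and 5.57 FPKM in control libraries and 7.42, 7.80 and 8.59 in siGSE1 libraries (log2 fold change 0.56, SE 0.07, adjusted p = 5.50e-05). SKIL, itself a target of TGF-beta, had 5.30, 5.10 and 7.08 against 8.65, 9.88 and 9.01 (0.64, SE 0.10, adjusted p = 1.90e-04). In SKIL it was control replicate 3, not 2, that lay apart from the other controls. Without control replicate 2 the log2 fold change of SKIL was 0.56 (SE 0.08). BHLHE40, a basic helix-loop-helix repressor, was an order of magnitude more abundant, at 71.8, 67.2 and 70.5 FPKM in control and 98.2, 101 and 95.5 in siGSE1 libraries (0.47, SE 0.05, adjusted p = 1.12e-05). Its controls lay close together, and its fold change without control replicate 2 was 0.44 on the log2 scale. TGIF1, the SMAD corepressor, had 16.5, 15.9 and 16.5 FPKM in control libraries and 14.9, 14.8 and 14.96 in siGSE1 libraries. The groups did not overlap but lay close, and the log2 difference was -0.15 (SE 0.05, adjusted p = 0.0440). Its call held in 4 of 14 alternatives, with adjusted p from 0.0203 to 0.209, and was lost when any library other than control replicate 2 was left out.

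**Figure D2:**
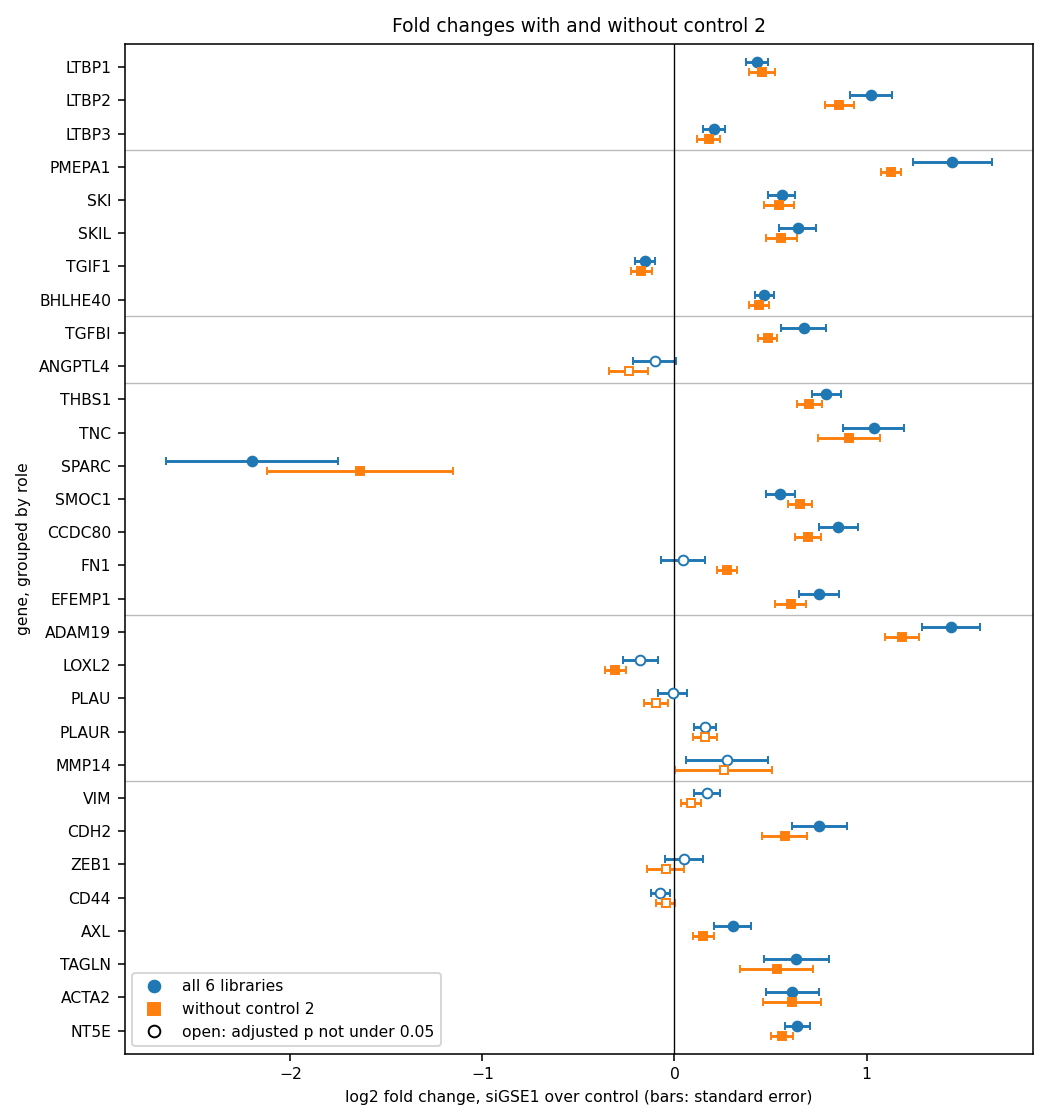
The x axis gives the log2 fold change of siGSE1 over control with its standard error for the 30 tested genes, with all 6 libraries (blue circles) and without control replicate 2 (orange squares). Open symbols did not pass an adjusted p of 0.05. The bars of PMEPA1, ADAM19 and TGFBI are shorter without that library, and FN1 and LOXL2 change from open to filled. The library was left out because it stood apart, so shorter bars are not stronger evidence.

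Of the secreted targets, TGFBI rose and ANGPTL4 did not pass. TGFBI (ENSG00000120708, chromosome 5, 136028988 to 136063818, plus strand), a matrix adhesion protein first found as a TGF-beta induced gene, was among the most abundant members. It had 145, 92.3 and 145 FPKM in control replicates 1, 2 and 3 and 207, 199 and 214 in the siGSE1 libraries. Control replicates 1 and 3 were nearly equal, and control replicate 2 was at 63.8% of their mean. The log2 fold change was 0.67 (SE 0.12, adjusted p = 7.19e-04), and 0.49 (SE 0.05, adjusted p = 2.89e-10) without control replicate 2. The robust prior gave an adjusted p of 0.104, the highest of the 14 alternatives. The lowest, 3.06e-41 with no filter, likewise came with almost the same log2 fold change (0.68) and depends on that setting. ANGPTL4, a secreted inhibitor of lipoprotein lipase, had 9.23, 6.97 and 9.60 FPKM in control and 7.84, 8.01 and 8.48 in siGSE1 libraries. Its siGSE1 values fell between control replicate 2 and the other controls (log2 fold change -0.10, adjusted p = 0.572), and without control replicate 2 the value was -0.24 (adjusted p = 0.0828).

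Among 8 matricellular and matrix genes, 7 were tested, of which 5 rose, 1 fell and 1 did not pass. Over all genes tested, 10.9% rose and 9.02% fell. THBS1, thrombospondin 1, which can activate latent TGF-beta, had 6.95, 5.52 and 6.30 FPKM in control libraries and 11.0, 10.7 and 11.3 in siGSE1 libraries. Its log2 fold change of 0.79 (SE 0.07, adjusted p = 2.86e-06) was 0.70 without control replicate 2. TNC, tenascin C, a glycoprotein of remodeling matrix, was scarce, at 0.68, 0.46 and 0.50 against 1.14, 1.07 and 1.23 FPKM, which rest on 70 to 236 counts a library. The log2 difference was 1.04 (SE 0.16, adjusted p = 2.51e-04), and 0.91 (SE 0.16) without control replicate 2. For both genes the groups lay well apart.

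CCDC80, a secreted matrix-binding protein, had 3.93, 2.68 and 3.65 FPKM in control libraries and 6.06, 6.64 and 6.10 in siGSE1 libraries (log2 fold change 0.85, SE 0.10, adjusted p = 2.86e-05). EFEMP1, fibulin 3, had 7.56, 5.37 and 7.36 against 11.1, 11.2 and 12.3 (0.75, SE 0.10, adjusted p = 1.14e-04). In both, control replicate 2 was the low control, at 70.7% and 72.0% of the mean of the others. Without it the log2 fold changes were 0.70 (SE 0.07) and 0.60 (SE 0.08). SMOC1, a calcium-binding protein of basement membranes related to SPARC, went the other way within the controls, at 15.4, 20.3 and 18.2 FPKM, and had 27.1, 25.8 and 27.4 in siGSE1 libraries. Its log2 fold change of 0.55 (SE 0.08, adjusted p = 1.14e-04) was 0.65 (SE 0.06) without control replicate 2.

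FN1 and SPARC departed from this pattern. FN1 (ENSG00000115414, chromosome 2, 215360440 to 215436073, minus strand), fibronectin, the main adhesive glycoprotein of provisional matrix, had 153, 231 and 152 FPKM in control replicates 1, 2 and 3 and 203, 177 and 182 in the siGSE1 libraries. Control replicate 2 was the highest of the 6 libraries, at 152% of the mean of the other controls, while those controls were below every siGSE1 library. With all libraries the log2 fold change was 0.04 (SE 0.12, adjusted p = 0.834), and without control replicate 2 it was 0.27 (SE 0.05, adjusted p = 1.09e-04). FN1 supplied 52.1% of the counts of the 33 genes in control replicate 2 and 35.5% to 38.6% in the other libraries. SPARC, printed although under 1 FPKM because it is 1 of the 2 that fell, a choice made after its values were seen, had 0.39, 0.78 and 0.25 FPKM in control and 0.07, 0.10 and 0.14 in siGSE1 libraries. These values rest on 6 to 75 counts a library. On the log2 scale SPARC changed by -2.20 (SE 0.45, adjusted p = 0.00259), and -1.64 (SE 0.48, adjusted p = 0.0111) without control replicate 2, the highest control. By limma on log2(FPKM + 1), a scale that shrinks changes of scarce genes, it was -0.40 (adjusted p = 0.0618, the highest of 14 alternatives). POSTN, periostin, another TGF-beta target of stromal cells, had 0 to 5 counts a library and was not tested.

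**Figure D3:**
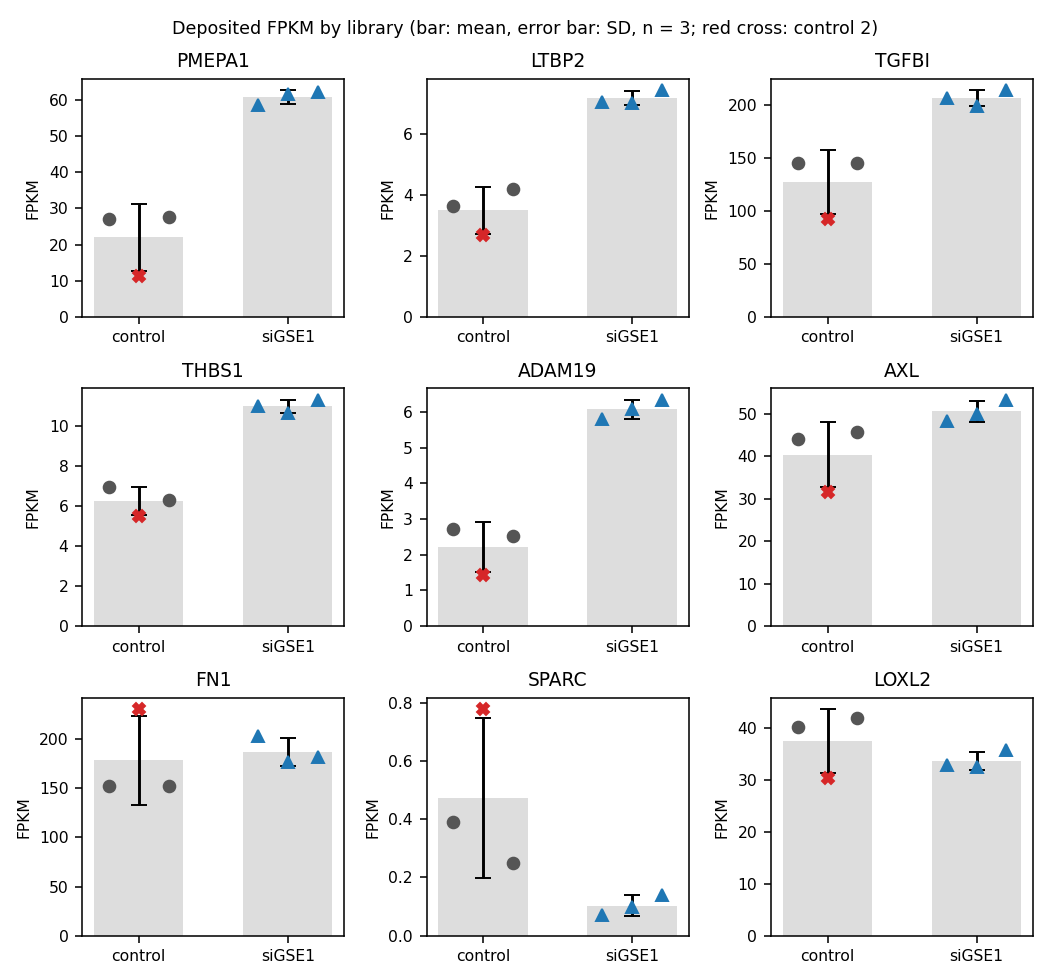
The panels show deposited FPKM for 9 genes, with bars for the mean of 3 libraries, error bars for the SD and a symbol per library (red cross, control replicate 2). The cross is the lowest control for PMEPA1, LTBP2, TGFBI, THBS1, ADAM19, AXL and LOXL2 and the highest for FN1 and SPARC. For FN1 it lies above all siGSE1 values.

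Of 6 genes of proteolysis and crosslinking, 5 were tested, with 1 rising and 4 not passing, where 10.9% of all genes rose. ADAM19 (ENSG00000135074, chromosome 5, 157395534 to 157575775, minus strand), a membrane metalloprotease that sheds growth factor precursors, had 2.71, 1.42 and 2.52 FPKM in control libraries and 5.79, 6.08 and 6.34 in siGSE1 libraries. The lowest siGSE1 value was more than double the highest control. The change was 1.44 on the log2 scale (SE 0.15, adjusted p = 8.74e-06), and 1.19 (SE 0.09, adjusted p = 3.35e-14) without control replicate 2. LOXL2, an enzyme that crosslinks collagen, had 40.1, 30.4 and 41.8 FPKM in control and 32.7, 32.5 and 35.7 in siGSE1 libraries. Again the siGSE1 values lay between control replicate 2 and the other controls. The log2 fold change was -0.18 (SE 0.09, adjusted p = 0.183) with all libraries and -0.31 (SE 0.05, adjusted p = 2.42e-05) without that one. LOXL2 also passed with no filter on low counts (adjusted p = 0.0375), in a range of 2.42e-05 to 0.478 over 14 alternatives.

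The urokinase system did not pass. PLAU, the urokinase protease that activates plasmin, had 30.01 to 38.7 FPKM in control and 32.6 to 36.5 in siGSE1 libraries (log2 fold change -0.01, SE 0.08, adjusted p = 0.949). PLAUR, its receptor, had 18.0 to 20.1 and 20.7 to 22.2, which did not overlap (0.16, SE 0.06, adjusted p = 0.0618). PLAUR passed under 3 of 14 alternatives, with TPM scaling, with no TMM scaling and with the robust prior, over a range of 0.0148 to 0.211. MMP14, a membrane matrix metalloprotease, was scarce at 0.63 to 0.67 and 0.70 to 0.92 FPKM (0.27, SE 0.21, adjusted p = 0.414). MMP1, interstitial collagenase, had 0 to 3 counts a library and was not tested.

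Of 9 mesenchymal and surface genes, 8 were tested, with 5 rising and 3 not passing, where 10.9% of all genes rose. NT5E, the surface enzyme CD73 that makes adenosine, had the smallest adjusted p of these 8. It had 19.6, 17.0 and 20.9 FPKM in control libraries and 30.6, 30.3 and 30.1 in siGSE1 libraries (log2 fold change 0.64, SE 0.07, adjusted p = 6.34e-06). Without control replicate 2 the log2 fold change of NT5E was 0.56 (SE 0.06). CDH2, N-cadherin, the cadherin of mesenchymal and neural cells, was low in A549, at 1.67, 1.09 and 1.63 against 2.14, 2.56 and 2.79 (0.76, SE 0.14, adjusted p = 0.00150). Without control replicate 2 its value was 0.57 (SE 0.12). AXL, a receptor tyrosine kinase of mesenchymal-type tumor cells, had 44.0, 31.5 and 45.6 FPKM in control and 48.3, 50.0 and 53.3 in siGSE1 libraries. The log2 fold change of 0.30 (SE 0.10, adjusted p = 0.0396) was 0.15 (SE 0.05, adjusted p = 0.0371) without it. AXL's call was lost under 6 of 14 alternatives, which were DESeq2, limma, the robust prior and leaving out any siGSE1 library, with adjusted p from 2.66e-06 to 0.283 over the 14.

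ACTA2 and TAGLN were scarce and rose. ACTA2, alpha smooth muscle actin, had 2.59, 2.62 and 2.67 FPKM in control libraries and 3.39, 4.10 and 4.74 in siGSE1 libraries (log2 fold change 0.61, SE 0.14, adjusted p = 0.00472), and its spread lay in the siGSE1 group. Its coding sequence closely resembles those of other actin genes, so reads may have been split or shared among them. TAGLN, the actin-binding protein transgelin, had 0.75, 0.56 and 0.62 against 0.96, 1.03 and 1.07 (0.63, SE 0.17, adjusted p = 0.0152). Its call was lost without siGSE1 replicate 2 (adjusted p = 0.0579) or siGSE1 replicate 3 (adjusted p = 0.0709), in a range of 0.00571 to 0.0709 over 14 alternatives. TAGLN shares 446 annotated exonic bases with PCSK7 on the other strand, and ACTA2 shares 380 with FAS. The mean counts of PCSK7 and FAS were 524.5 and 478, above the 103 of TAGLN and the 188 of ACTA2, and no source used here says that counting used strand.

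The other 3 tested genes of this group, VIM, CD44 and ZEB1, did not pass. VIM, the intermediate filament vimentin, was abundant at 142, 112 and 127 FPKM in control libraries and 148, 142 and 145 in siGSE1 libraries. The highest control nearly equalled the lowest siGSE1 library (log2 fold change 0.17, SE 0.07, adjusted p = 0.101), and without control replicate 2 the value was 0.09 (adjusted p = 0.272). VIM passed under 4 of 14 alternatives, over a range of 0.00437 to 0.272. One of these left out control replicate 1, the highest control, and gave 0.27. CD44, the hyaluronan receptor, had 76.8 to 82.0 FPKM in control and 73.2 to 78.6 in siGSE1 libraries (-0.07, SE 0.05, adjusted p = 0.325). ZEB1, a repressor of epithelial genes, had 2.44 to 3.20 and 2.79 to 3.23 (0.05, SE 0.10, adjusted p = 0.779). SNAI2, the related repressor Slug, had 0 to 12 counts a library and was not tested.

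Control replicate 2 lay below the other controls for most members. It was the lowest of the 3 controls for 23 of the 30 tested members and the highest for 5, where over all genes tested the shares were 33.9% and 34.7%. It lay at least 0.3 below the mean of the others on the log2 scale for 11 members, against 10.8% of all genes, and at least 0.3 above for FN1 and SPARC, against 12.7%. In 17 members control replicate 2 lay below the other controls and these below all siGSE1 libraries, an order found in 6.91% of all genes tested. SPARC alone among the members had the reverse order, found in 5.89%. FN1, SPARC and CD44 had their highest value of the 6 libraries there, as did 18.2% of all genes. These orders use the same control libraries as the fold changes and are not independent of them. The median coefficient of variation of FPKM over the 30 genes was 14.4% among the 3 controls, 4.32% between control replicates 1 and 3, and 4.78% among siGSE1 libraries. Over all genes tested these medians were 9.08%, 6.82% and 6.88%. The values between control replicates 1 and 3 rest on 2 libraries and the others on 3, so they are not directly comparable.

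Other genes of the pathway changed in both directions. Of 17 core genes (ligands, receptors, SMADs and their regulators), 16 were tested, of which 4 rose, 2 fell and 10 did not pass, where 10.9% and 9.02% of all genes rose and fell. The receptor kinase gene TGFBR1 had 7.86, 5.63 and 7.67 FPKM in control and 14.7, 15.4 and 13.7 in siGSE1 libraries (log2 fold change 1.03, SE 0.10, adjusted p = 2.66e-06). FURIN, the protease that cleaves the TGF-beta precursor, rose by 0.50, the inhibitory SMAD gene SMAD7 by 0.48, and the ligand gene TGFB1, named after its values were seen, by 0.27 on the log2 scale. The signal-transducing SMAD3 had 35.9, 35.4 and 36.5 FPKM against 28.98, 29.8 and 29.7 (-0.31, SE 0.05, adjusted p = 2.77e-04), and the coreceptor gene TGFBR3 had -0.40 on the log2 scale (SE 0.07, adjusted p = 0.00134). SMAD3 had nearly equal controls, so control replicate 2 did not stand apart there. Without control replicate 2, 5 core genes rose and 3 fell, beside 11.8% and 10.1% of all genes.

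Among 20 other TGF-beta target genes, 16 were tested, with 6 rising, 3 falling and 7 not passing, beside the same 10.9% and 9.02%. The cytokine gene IL11 rose by 1.55, the AP-1 subunit gene JUNB by 0.80 and the TGF-beta inducible KLF10 by 0.47 on the log2 scale. The helix-loop-helix inhibitor genes ID2 and ID1 had -0.83 and -0.34, and the inhibitory SMAD6 had -0.20. Their relative ID3, named after its values were seen, rose by 0.21 (SE 0.05, adjusted p = 0.00705). Without control replicate 2, 8 of these targets rose and 3 fell, beside 11.8% and 10.1% of all genes.

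**Figure D4:**
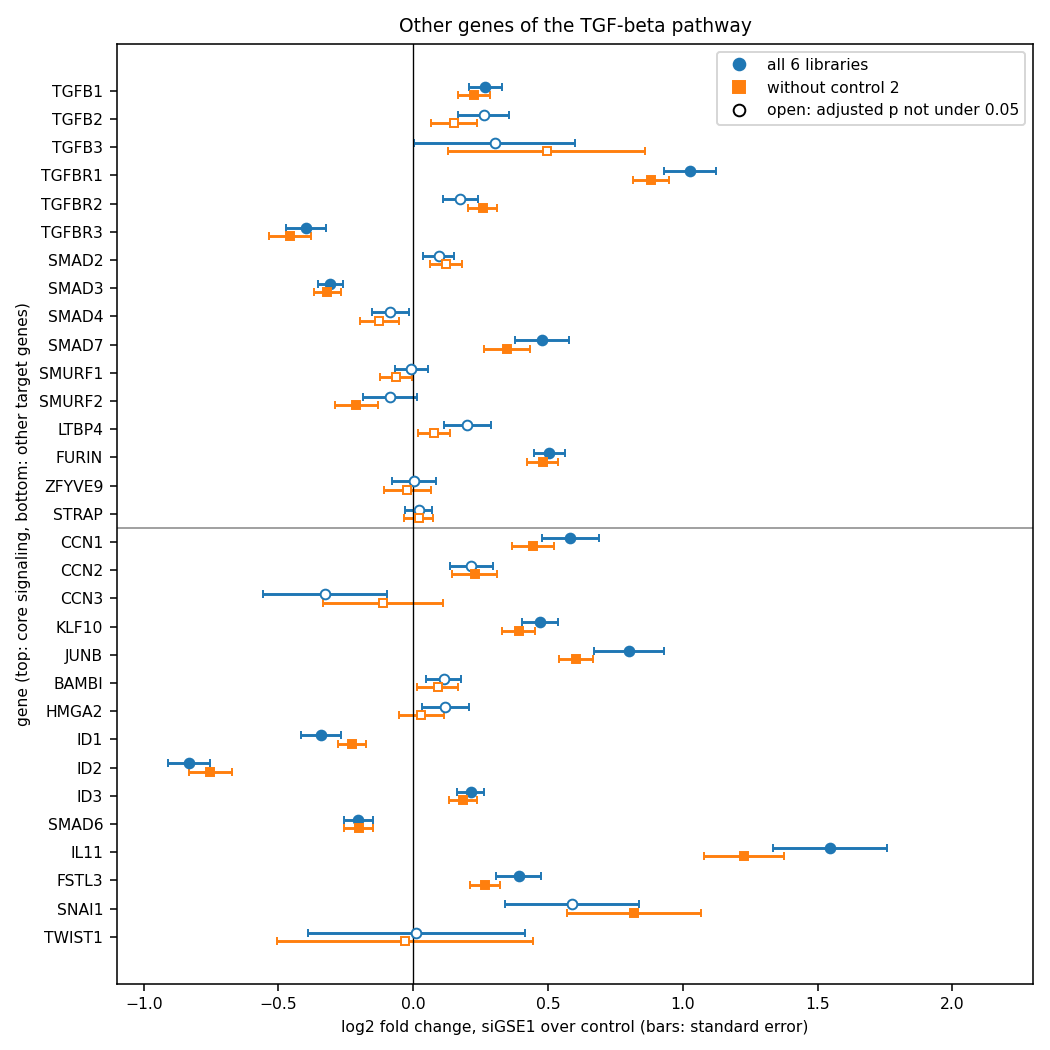
The x axis gives the log2 fold change of siGSE1 over control with its standard error for 16 core pathway genes (top) and 15 of the 16 other target genes tested (bottom), with all libraries (blue circles) and without control replicate 2 (orange squares). Filled symbols passed an adjusted p of 0.05. TGFBR1 and IL11 lie farthest to the right and ID2 farthest to the left.

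Most markers of other cell types were scarce. Of 11 fibroblast markers, 10 were under 1 FPKM in both groups, 4 were tested and 0 passed in edgeR, DESeq2 or limma (also 0 at an unadjusted p of 0.05), and the dermatopontin gene DPT had 0 counts. Their summed level was 1.43 FPKM in control replicate 2, at most 2.49 in the other controls and 2.51 to 2.83 in siGSE1 libraries. The sum was thus lowest where most matrix genes were lowest, and its part in the results was not tested. Its largest part was COL1A1, named after its values were seen, with 1.25, 0.99 and 1.44 FPKM in control replicates 1, 2 and 3. COL1A1 had 1.17 to 1.56 FPKM in siGSE1 libraries (log2 fold change 0.20, SE 0.15, adjusted p = 0.389). LUM had 0.49, 0.18 and 0.44 FPKM in control replicates 1, 2 and 3, and THY1 had 0.59, 0.12 and 0.31. PDGFRA, the other marker tested, had 0.10, 0.05 and 0.04. These were also named after their values were seen. COL3A1, not tested, was highest in control replicate 2, with 3, 10 and 0 counts in control replicates 1, 2 and 3. All 7 endothelial markers and 6 of 8 leukocyte markers were under 1 FPKM in both groups, with ERG at 0 counts, and 0 of the 3 tested passed by the same tests, adjusted or not. Summed endothelial markers had 0.14 to 0.20 FPKM in control and 0.07 to 0.25 in siGSE1 libraries, and summed leukocyte markers 4.35 to 7.03 and 4.06 to 5.83. Most of the leukocyte sum was CD14, named after its values were seen, with 3.31 to 5.67 FPKM in control and 3.14 to 4.85 in siGSE1 libraries (log2 fold change -0.14, SE 0.21, adjusted p = 0.700). Among 19 epithelial markers, 13 were tested, of which 0 rose, 3 fell and 10 did not pass. Over all genes tested, 10.9% rose and 9.02% fell. At an unadjusted p of 0.05, 0 of these markers were higher and 4 lower in edgeR and DESeq2. In limma 1 was higher and 3 lower. The tight junction gene CLDN4 had -0.72 and the keratin genes KRT8 and KRT18 had -0.26 and -0.25 on the log2 scale. Control replicate 2 had the highest KRT8 and KRT18, and without it KRT18 did not pass (-0.12, adjusted p = 0.0716). CDH1, E-cadherin, the counterpart of N-cadherin in epithelia, had 27.3 to 33.6 FPKM in control and 27.7 to 28.7 in siGSE1 libraries (-0.11, SE 0.07, adjusted p = 0.299).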

How the data were processed

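The authors deposited 1 table with whole-number read counts per gene, which carry no normalization, and FPKM per library, which per the file headers go with an exonic gene size. Per the submitters' processing notes, HISAT2, StringTie 1.3.3b, HTSeq and edgeR were among the tools, with build hg38 and no roles given, while the series text names STAR, RPKM and DESeq2. The exonic length and coordinates printed are those deposited. Per the labels, 500 ng of total RNA entered each library.

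Counts were tested with edgeR 4.0.16 in R 4.3.3 (glmQLFit and glmQLFTest, TMM, group alone as the model). filterByExpr used 10 as its minimum count and 15 as its minimum total, and p-values were adjusted by Benjamini-Hochberg over 15937 genes. Standard errors were recovered from the F statistic, as the size of the log2 change over the root of F. The common biological coefficient of variation was 7.00%. The fit was tested on simulated counts. Library values in the plot by library are log2 CPM with a prior count of 2. Alternatives used DESeq2 1.42.0, limma 3.58.1 on log2(FPKM + 1), other scalings, no filter, a robust prior, a replicate block and leaving out each library. All members were accounted for, and every library's value was printed for members past the threshold with at least 1 FPKM in either group or whose call changed without control replicate 2. From the other lists up to 3 genes per direction with the smallest adjusted p were named. Members and lists were chosen with earlier results of these data known, so no test over a list is given.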

Additional observations from a re-analysis of the deposited data

How the results depend on the processing

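No alternative turned a called member around. PLAU, not called, had 0.015 without TMM scaling, 0.052 with TPM scaling and 0.016 by limma, and -0.095 to 0.067 when each library was left out in turn. In the same way FN1 ran from -0.072 (without control replicate 3) to 0.27 (without control replicate 2), and ZEB1 from -0.045 to 0.13.

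Of the members, 16 to 20 rose and 1 to 3 fell when each library was left out in turn, and over all genes 1049 to 1914 rose and 814 to 1648 fell. The low ends for all genes came without siGSE1 replicate 3, and 897 genes fell without siGSE1 replicate 2. The median of the 30 members ran from 0.47 to 0.51 in these fits. A single member fell without TMM scaling, with TPM scaling and with the replicate block (1 each), and 0 by limma. Over all genes 929 fell with TPM scaling and 887 by limma. The share of called genes that rose was 54.6% with TMM, 62.4% without it and 73.3% with TPM scaling, which moved the median of all genes by less than 0.1 on the log2 scale, and 19, 20 and 21 members rose. At the limits of the series text 258 genes rose and 148 fell, with 12 and 0 members. The labels do not say whether same-numbered libraries share a culture or batch. Their deviations from the group means correlated at 0.02, -0.02 and 0.00 over genes. Libraries with different numbers had -0.04 to 0.04, so these values cannot settle the pairing. With the replicate block 20 members rose and 1 fell, and 1715 genes rose and 1382 fell. Genes under 1 FPKM, SPARC among them, are limited by depth.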
